A study of Mus musculus with 6 samples.

Results

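Binding of the nuclear receptor ESRRB was followed near 10 genes of the WNT and TCF pathway (Tcf7l1, Tcf7, Lef1, Ctnnb1, Wnt3, Axin2, Nkd1, Sp5, Cdx1 and T) in E14 cells, a mouse embryonic stem cell line. ESRRB ChIP-seq, in which DNA bound by a protein is recovered with an antibody and sequenced, was done with a mouse monoclonal antibody on cells held in 2iL and on cells taken 48 h and 96 h after 2iL was withdrawn, with 1 antibody library per condition and no replicate. The 2iL medium was N2B27 with the GSK3 inhibitor CHIR99021 at 3 µM, the MEK inhibitor PD0325901 at 1 µM and the cytokine LIF, and the 2 later conditions were in N2B27 alone, so GSK3 was inhibited only in 2iL. A region is a unique interval of the authors' peak lists, and it was taken as near a gene when a summit lay within 100 kb of the gene span in mm10. The rule found 89 of the 31755 regions in the 3 lists: 44 of 13767 in 2iL, 28 of 10970 at 48 h and 17 of 7018 at 96 h. The peak lists hold no expression values, so neither the cell state nor the activity of the genes was checked.

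WNT ligands bind Frizzled receptors and LRP co-receptors, which stops the destruction complex of AXIN, APC and GSK3 from marking β-catenin for degradation. β-catenin, the product of Ctnnb1, then enters the nucleus and acts through the TCF and LEF factors at target genes. In mouse embryonic stem cells TCF7L1 mainly represses genes of the pluripotency network, Esrrb among them, and a GSK3 inhibitor relieves that repression. Axin2, Nkd1, Sp5, Cdx1 and T are known targets of the pathway.

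RefSeq promoter windows (GRCm38.p6, 250 bases before to 50 after a start) were matched for 9 of the 10 genes, in 14 windows, and 0 of the 14 overlapped a region in any library. Cdx1 had no matched window, so whether a region covers its start was not read. A 2iL region does cover the higher-numbered end of the Cdx1 span, so the 0 of 14 does not extend to that gene. Among all 32851 windows, a 2iL region overlapped 5.19%, a 48 h region 3.61% and a 96 h region 2.72%. The nearest region lay 5.44 kb from a window at Ctnnb1 and 59.1 kb from that at Nkd1, the lowest and highest distance. The estrogen-related receptor element TNAAGGTCA, searched on both strands, was found in 1 of the 14 windows and in 1.28% of all windows. Its half-site AAGGTCA, which the longer motif contains, was in 4.72% of all windows and in 18.1% of the 684 windows that hold a 2iL summit. The TCF core CTTTGAT was in 1 of the 14 windows and in 3.73% of all windows. A match describes letters in a window and not a bound site.

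The 4 windows below show where these motifs lie, each printed 5′ to 3′ with the match in capitals. The Tcf7 window (chr11:52282546-52282845, minus strand) holds the receptor element on the opposite strand at bases 238 to 246, 4 bases before the start site, and no region was called there. The Sp5 window (chr2:70474673-70474972, plus strand) holds the TCF core at bases 147 to 153. The other 2 windows lie under 2iL regions near these genes and were chosen because they hold the half-site. Another Gm34036 window, which overlaps the printed one, also holds it. The windows of Elmod3, Retsat, Gosr2, C130046K22Rik and Gm46298 and another of Vdac1 also lie under such regions and hold no half-site. The Vdac1 window (chr11:52361347-52361646, plus strand) is under a region 78.0 kb from Tcf7, whose summit is at base 61, 87 bases from the centre of the match. The Gm34036 window (chr17:8413810-8414109, minus strand) is under a region 19.9 kb from T, with the weaker summit of that region, of fold 2.22, 44 bases from the match.
Tcf7: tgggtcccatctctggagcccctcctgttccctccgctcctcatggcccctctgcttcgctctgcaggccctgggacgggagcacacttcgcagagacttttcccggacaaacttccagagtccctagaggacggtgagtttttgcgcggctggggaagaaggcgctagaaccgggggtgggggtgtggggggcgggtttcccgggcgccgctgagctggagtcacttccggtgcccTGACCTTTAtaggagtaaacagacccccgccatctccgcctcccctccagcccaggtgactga
Sp5: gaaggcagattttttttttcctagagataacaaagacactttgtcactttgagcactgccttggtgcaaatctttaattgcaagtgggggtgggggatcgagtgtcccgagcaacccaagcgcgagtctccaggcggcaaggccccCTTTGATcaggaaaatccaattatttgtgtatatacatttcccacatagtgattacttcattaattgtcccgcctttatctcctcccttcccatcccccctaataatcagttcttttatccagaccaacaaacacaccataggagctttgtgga
Vdac1: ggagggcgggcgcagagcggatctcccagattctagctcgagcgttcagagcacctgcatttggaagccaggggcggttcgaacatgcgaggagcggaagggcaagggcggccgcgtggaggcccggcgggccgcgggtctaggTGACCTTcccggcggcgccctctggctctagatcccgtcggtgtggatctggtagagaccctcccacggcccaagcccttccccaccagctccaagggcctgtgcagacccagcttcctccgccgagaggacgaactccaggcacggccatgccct
Gm34036: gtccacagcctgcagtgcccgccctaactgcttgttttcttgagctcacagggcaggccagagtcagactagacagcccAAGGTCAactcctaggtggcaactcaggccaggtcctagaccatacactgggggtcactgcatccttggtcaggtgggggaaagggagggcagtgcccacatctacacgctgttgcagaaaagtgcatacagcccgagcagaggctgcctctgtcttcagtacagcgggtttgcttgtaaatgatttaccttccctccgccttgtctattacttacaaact

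All 10 genes had a 2iL region within 100 kb, against 69.8% of the 21887 protein-coding genes. At 48 h 7 of the 10 had one, against 64.7%, and at 96 h 8 of the 10, against 54%. The 8 include Axin2 only through a region of fold 1.72, described below, and 7 had a region of fold 2 or more at 96 h. The number of regions per gene had medians of 4, 2 and 1.5 in the 2iL, 48 h and 96 h libraries, where the median over all protein-coding genes was 1 in each library. At 48 h 8 of the 10 had fewer regions than in 2iL, against 55.8% of genes with a 2iL region, and 2 had more (Lef1 and Tcf7), against 18.1%. At 96 h all 10 had fewer than in 2iL, against 74.4%, and 0 had more, against 6.7%. No region at all was left at 48 h for Ctnnb1, Wnt3 and T, 3 of the 10 against 15.2%, and at 96 h for Wnt3 and Nkd1, 2 of the 10 against 27.7%. These shares are over genes with any number of 2iL regions, and a gene with more regions has more to lose. The 10 genes had a median of 4 in 2iL, so the shares, here and with the shortened lists below, are not a like comparison for them. The lists differ in length, and several of these directions changed when each was shortened to its 7018 strongest regions by fold, which left 22, 14 and 17 regions near the 10 genes in the same order of time. Of the 9 genes that then had a 2iL region, 6 had fewer at 48 h, against 42.3% of protein-coding genes, and 2 had more (Lef1 and Tcf7l1), against 21.3%, while Tcf7 had equal numbers. At 96 h 6 of the 9 had fewer, against 40.4%, and 1 had more (Lef1), against 27.3%, while Sp5 and T had equal numbers. Ctnnb1 then had 0 regions in 2iL and 1 at 96 h. No test between conditions was possible with 1 library each, and an uncalled site is not shown to lack ESRRB.

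**Figure D1:**
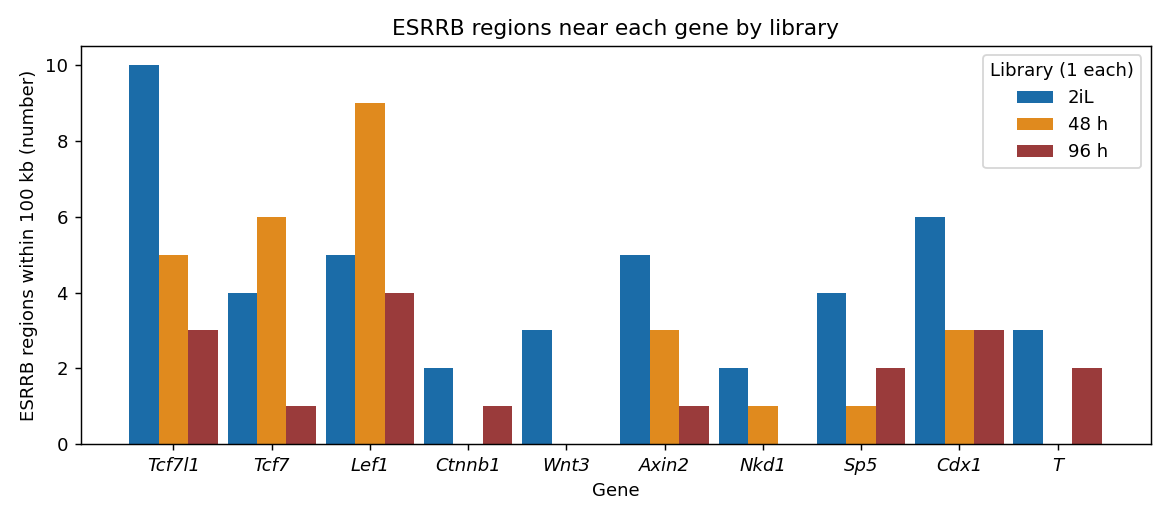
Number of ESRRB regions within 100 kb of each gene (vertical axis) in the 2iL, 48 h and 96 h libraries, 1 library each, with no error bar because there are no replicates. Tcf7l1 has the most in 2iL (10) and Lef1 the most at 48 h (9), while Wnt3 has regions in 2iL alone.

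The 10 genes lie in chromatin that holds many regions: their windows held 17.5 regions per Mb in 2iL, 11.1 at 48 h and 6.75 at 96 h, against means of 8.40, 6.55 and 4.40 over the windows of all protein-coding genes. Of the 44 regions of 2iL, 9 had their highest summit inside the gene, 5 lay outside it within 10 kb, 13 at 10 to 50 kb and 17 at 50 to 100 kb. The nearest protein-coding gene was the pathway gene for 22 of the 44 in 2iL, 17 of the 28 at 48 h and 6 of the 17 at 96 h. The others lie nearer another gene, named with the region below where the region is inside it. The regions closest to the 100 kb limit were those 98.2 to 98.3 kb from Lef1 inside it (folds of 8.25, 6.64 and 6.30 in the 2iL, 48 h and 96 h libraries) and one 102.7 kb from Ctnnb1 outside it (fold 4.47 in 2iL).

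**Figure D2:**
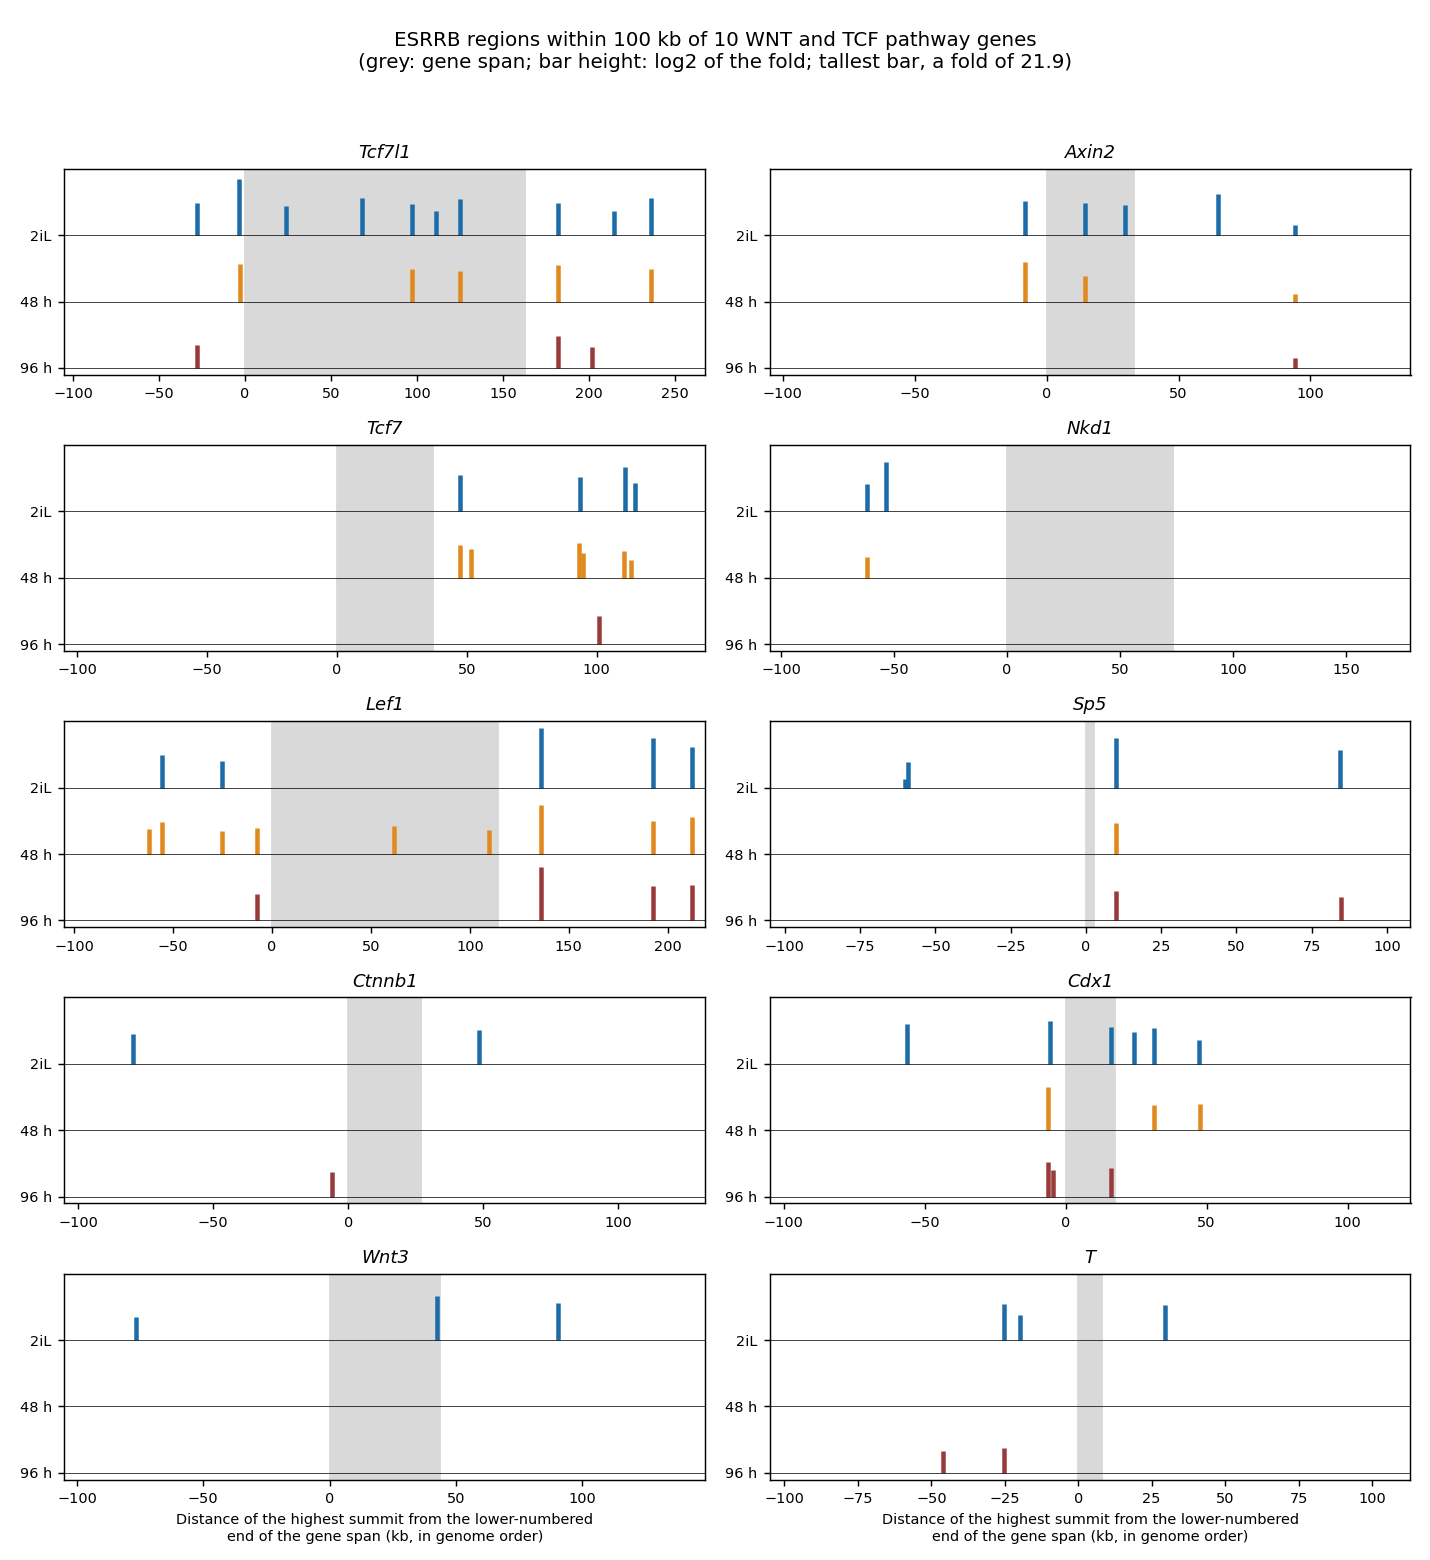
Regions around each gene, as distance in kb of the highest summit from the lower-numbered end of the gene span (grey), with 2iL, 48 h and 96 h in rows and bar height as the log2 of the fold over local background. The tallest 2iL bars are those 22.1 kb beyond Lef1, which has bars in all 3 rows, and 3.22 kb from Tcf7l1, which has none at 96 h.

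Tcf7l1 (gene 21415, chromosome 6, 72626371 to 72789045, minus strand) had the most regions of the 10 genes in 2iL. It had 10, 5 and 3 regions in the 2iL, 48 h and 96 h libraries, and 0.85% of protein-coding genes, with windows of any length, had 10 or more in 2iL. Its own window, of 362.7 kb, was the longest of the 10 genes. With lists of equal length it had 4 regions in 2iL, as many as Cdx1, and 5 at 48 h. Its strongest region (72622550 to 72624248) lay 3.22 kb beyond the 3′ end, outside any gene. There the fold over local background, the ratio that the authors' caller gave, was 6.88 (95% counting interval 5.45 to 8.58, 77 reads at the summit) at 48 h, against 18.4 (15.7 to 21.4, 165 reads) in 2iL, and the region was not called at 96 h. The counting intervals do not meet, and the region stood at the 75.0 percentile of folds at 48 h, against the 98.8 percentile in 2iL.

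Inside Tcf7l1 2iL had 5 regions, 48 h had 2 and 96 h had none. The 2iL regions inside the gene that were called at 48 h had folds of 5.46 at 48 h against 4.87 in 2iL (72722788 to 72723837) and 4.90 against 6.56 (72751100 to 72753217). The 3 called in 2iL alone had folds of 4.44 (72649532 to 72650369), 6.69 (72694068 to 72694796) and 3.53 (72736776 to 72737897). One region of Tcf7l1 was called in every library, 19.5 kb upstream of the 5′ end (72808363 to 72808863 in 2iL), with folds of 5.25, 6.60 and 5.32 in the 2iL, 48 h and 96 h libraries. Those 3 counting intervals meet. A region 27.8 kb from Tcf7l1, inside the retinol metabolism gene Retsat, had a fold of 3.33 at 96 h against 5.32 in 2iL and was not called at 48 h. It covers the promoter windows of Retsat and its neighbour Elmod3. The other 3 sites of Tcf7l1 lay on its upstream side. Inside Kcmf1, a region 73.7 kb away had 5.47 at 48 h against 6.74 in 2iL and one 52.2 kb away was called in 2iL alone (3.44), while one outside Kcmf1, 39.1 kb away, was called at 96 h alone (2.88). The strongest region of Tcf7l1 at 96 h was thus the upstream one that all 3 libraries called.

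Lef1 (gene 16842, chromosome 3, 131110297 to 131224357, plus strand), which encodes a factor that mainly activates targets with β-catenin, had 5, 9 and 4 regions, and 0.617% of protein-coding genes, again with windows of any length against its 314.1 kb, had 9 or more at 48 h. All 5 of its 2iL regions were called at 48 h, and 3 of the 5 at 96 h as well. The strongest region of the 10 genes lay 22.1 kb beyond its 3′ end, inside Hadh, a gene of fatty acid oxidation (131245715 to 131248172 in 2iL). Its fold was 21.9 (18.9 to 25.1, 196 reads) in 2iL, 12.4 (10.8 to 14.1, 225 reads) at 48 h and 15.5 (13.2 to 18.1, 156 reads) at 96 h, at the 99.6, 95.7 and 97.8 percentiles. Both later intervals lie under that of 2iL, and they meet each other. Whether a region inside Hadh acts on Lef1, on Hadh or on neither was not measured.

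Another 2 regions on that side were called in all 3 libraries. One inside Cyp2u1, a cytochrome P450 gene, 78.8 kb from Lef1 (131302417 to 131303762 in 2iL), had folds of 13.1 (10.7 to 15.9), 5.37 (4.66 to 6.15) and 6.04 (4.93 to 7.32) in the 2iL, 48 h and 96 h libraries. The later intervals lie under that of 2iL, while the summit held 101, 204 and 101 reads. The local background there was 6.78, 37.2 and 15.9 reads, so the lower later folds stand beside a higher background. The third region, inside Sgms2 at the edge of the window, had intervals that meet. Upstream of Lef1, regions 55.8 kb and 25.4 kb from the start were called in 2iL and at 48 h, with folds of 5.24 at 48 h against 5.44 in 2iL and of 3.24 against 3.90.

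Regions absent from the 2iL list numbered 4 of 9 at 48 h for Lef1, the most of the 10 genes, against 36.5% of all 48 h regions. At 96 h they numbered 1 of 4, against 30.5% of all. Upstream of the start, 7.86 kb away (131101988 to 131103036 at 48 h), a region was called at both later times with folds of 3.82 (3.16 to 4.58) at 48 h and 3.84 (2.78 to 5.18) at 96 h. It is the only region of the 10 genes called at both later times and not in 2iL, a class that made up 5.92% of all merged regions. Inside the gene, regions of fold 4.14 (131171129 to 131172206) and 3.36 (131219423 to 131220383) were called at 48 h alone. The fourth, 62.0 kb upstream, had a fold of 3.57. The 4 stood between the 12.3 and 30.8 percentiles of folds at 48 h, and the background floor of that library was 8.09 reads, against 5.04 in 2iL, a value that scales with depth. With lists of equal length Lef1 kept 4 of its 9 regions at 48 h, and none of those absent from 2iL was among them.

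Tcf7 (gene 21414, chromosome 11, 52246527 to 52283383, minus strand) encodes TCF1, mainly an activator when bound by β-catenin. It had 4, 6 and 1 regions, all upstream of its start, with the highest summit between 10.4 and 78.0 kb away, and none inside the gene. A weaker summit of 1 region at 48 h lay within 10 kb. Of its 4 regions of 2iL, 3 were called at 48 h and none at 96 h. The strongest in 2iL, 73.9 kb away (52356847 to 52357864), had a fold of 3.89 (2.93 to 5.08) at 48 h against 9.67 (7.92 to 11.7) in 2iL, and the intervals do not meet. The one closest to the gene (52293099 to 52295019) had 5.52 at 48 h against 6.45 in 2iL, with intervals that meet. A region 56.9 kb away in 2iL (52339277 to 52341914) was called as 2 regions at 48 h, with folds of 5.95 and 3.62. Regions 14.8 kb (4.33) and 76.4 kb (2.52) away were called at 48 h alone. The region at 96 h (52347342 to 52347862, fold 4.19) overlapped none of the other libraries. The regions beyond 56 kb are nearest Vdac1, which encodes a channel of the outer mitochondrial membrane.

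Ctnnb1 (gene 12387, chromosome 9, 120933400 to 120960507, plus strand) had 2, 0 and 1 regions. Those of 2iL had folds of 4.74 (120853116 to 120854582, 79.6 kb upstream) and 5.71 (120980969 to 120982397, inside Ulk4), and neither was called later. At 96 h a region of fold 3.64 (2.55 to 5.05, 34 reads) was called 6.17 kb upstream of the gene (120926713 to 120927706), where no other library had one. No region lay inside Ctnnb1 in any library.

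Wnt3 (gene 22415, chromosome 11, 103774175 to 103818021, plus strand) encodes a ligand needed for mesoderm formation in the mouse embryo. It was the only one of the 10 with no region at either later time, having 3 in 2iL. Of the protein-coding genes with 3 or more 2iL regions, 2.51% had none at both later times. That share includes genes with more than 3, which had more regions to lose, so it is not a like comparison for Wnt3. The counts of Wnt3 were shared by 137 other protein-coding genes. The strongest lay inside the gene near its 3′ end (103816421 to 103817389), with a fold of 9.86 (100 reads) at the 85.9 percentile. The other 2 had folds of 6.73 (inside Nsf) and 3.34 (inside Gosr2). Its span meets that of Wnt9b, another ligand gene, and all 3 regions lie within 100 kb of both.

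Axin2 (gene 12006, chromosome 11, 108917828 to 108950783, plus strand), a scaffold of the destruction complex and a feedback target of the pathway, had 5, 3 and 1 regions. Its region 8.18 kb upstream (108909316 to 108910158 in 2iL) had a fold of 7.76 (6.42 to 9.30, 115 reads) at 48 h against 5.94 (4.32 to 7.98, 42 reads) in 2iL. The intervals meet, and the region was not called at 96 h. Inside the gene, a region had 3.80 at 48 h against 5.22 in 2iL (108931834 to 108933097), and another was called in 2iL alone at 4.75 (108947240 to 108948156). The strongest 2iL region, 32.2 kb beyond the gene (108982594 to 108984147, fold 8.33), was called in 2iL alone.

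The sole Axin2 region at 96 h was of another kind. It lay 61.1 kb beyond the gene (109011663 to 109012096) and had folds of 1.65, 1.45 and 1.72 in the 2iL, 48 h and 96 h libraries, with 325, 414 and 403 reads over a local background of 197.1, 284.5 and 234.5. All 3 folds stood under the 1 percentile of their library, and the background was the highest of any region near the 10 genes. Without regions of fold under 2, a limit chosen after these values were seen, Axin2 had 4, 2 and 0 regions.

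Nkd1 (gene 93960, chromosome 8, 88521342 to 88594887, plus strand) encodes a protein that binds Dishevelled and dampens WNT signalling. It had 2, 1 and 0 regions, all over 50 kb upstream. The stronger, 53.4 kb away (88467476 to 88468261), had a fold of 13.1 (10.4 to 16.3, 78 reads) at the 94.4 percentile of 2iL and was called in 2iL alone. Among all 2iL regions, of any fold, 45.6% were called at neither later time. Over all regions, those not called at 48 h had a median 2iL fold of 5.19, against 6.86 for those called. The weaker (88458961 to 88459688) had 2.97 at 48 h against 4.16 in 2iL.

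Sp5 (gene 64406, chromosome 2, 70474923 to 70477726, plus strand) encodes a zinc finger factor and had 4, 1 and 2 regions. The strongest lay 7.29 kb beyond its 3′ end (70484437 to 70486166 in 2iL) and was called in every library. It had folds of 12.7 (10.8 to 15.0, 145 reads) in 2iL, 4.89 (3.66 to 6.39, 51 reads) at 48 h and 4.53 (3.10 to 6.40, 30 reads) at 96 h. The later intervals lie under that of 2iL and meet each other, and the region stood at the 93.8, 48.0 and 43.3 percentiles. A region 81.4 kb beyond the gene had 3.30 at 96 h against 6.77 in 2iL, with intervals that do not meet, and was not called at 48 h. Of the 2 regions inside Myo3b, both in 2iL alone, 1 had a fold of 3.75 and the other a fold of 1.54 with 10 reads. The weaker was the only one of the 89 with a deposited q above 0.05.

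Cdx1 (gene 12590, chromosome 18, 61018862 to 61036199), a homeobox gene of trunk patterning, had 6, 3 and 3 regions. The strongest lay inside the transporter gene Slc6a7, 5.67 to 6.41 kb from Cdx1 by the highest summit (61011698 to 61015226 in 2iL). It was called in all 3 libraries, as 2 regions at 96 h, with folds of 9.15 (7.10 to 11.6), 9.30 (8.13 to 10.6) and 6.04 (4.93 to 7.32) in the 2iL, 48 h and 96 h libraries. The interval at 96 h meets that of 2iL and lies under that of 48 h. The highest summit held 65, 226 and 101 reads over a local background of 6.21, 23.4 and 15.9, so the later folds stand beside a higher background. A 2iL region over the higher-numbered end of Cdx1 itself (61034307 to 61037028) had a fold of 6.61. The 96 h region that overlapped it (61034435 to 61035450, fold 4.34) lay inside Cdx1 and did not reach that end. No region was called there at 48 h. Of the other 4 regions of 2iL, both inside Pdgfrb were called at 48 h, with folds of 3.71 against 6.45 and 3.83 against 3.43 in 2iL. The one inside Camk2a (fold 7.84) and that inside Gm52351, 6.84 kb from Cdx1 (61042448 to 61043473, fold 5.19), were called in 2iL alone.

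T (gene 20997, chromosome 17, 8434423 to 8442496, plus strand) encodes Brachyury, a T-box factor of mesoderm. It had 3, 0 and 2 regions and none within 10 kb. One region inside the neighbouring T2 (8408752 to 8409367 in 2iL) had a fold of 3.58 (2.47 to 5.03) at 96 h against 6.45 (5.07 to 8.09) in 2iL, with intervals that do not meet. The other 2 of 2iL had folds of 3.59 and 5.99 and were not called later, and a region of fold 3.11 inside T2 (8388290 to 8388797) was called at 96 h alone.

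Over the 10 genes, 21 of the 44 regions of 2iL were called at 48 h (47.7%, exact Clopper-Pearson 95% interval 32.5 to 63.3), where a region counted as called when it overlapped by at least 1 bp. For all 2iL regions the share was 50.7%. At 96 h 11 of the 44 were called (25%, 13.2 to 40.3), against 35% of all. Both intervals hold the share of all regions. With at least 50% of both regions required to overlap, the share at 96 h was 13.6% (5.17 to 27.4), against 29% of all, which lies above the interval. Both later times called 7 of the 44 (15.9%, 6.64 to 30.1), against 31.3% of all 2iL regions, whose share lies just above the interval. The Axin2 region of fold under 2 is among the 11 and among the 7. With regions of fold 2 or more alone, the share at 96 h was 23.8% (12.1 to 39.5), against 35.2% of all. Regions near 1 gene share their surroundings and are not independent, so the intervals cover counting error only and may be too narrow.

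By role, the 3 TCF and LEF factor genes had 13 of 19 regions of 2iL called at 48 h (68.4%, 43.4 to 87.4), and the other 7 genes had 8 of 25 (32%, 14.9 to 53.5). Those intervals meet, both hold the 50.7% of all 2iL regions, and the difference was not tested. Within the TCF and LEF genes the counts were 5 of 10 for Tcf7l1, 3 of 4 for Tcf7 and 5 of 5 for Lef1. At 96 h the shares were 5 of 19 (26.3%, 9.15 to 51.2) and 6 of 25 (24%, 9.36 to 45.1), against 35% of all. The 6 regions of 48 h absent from the 2iL list all lay near Lef1 and Tcf7. They were 6 of 28 (21.4%, 8.30 to 41.0), against 36.5% of all 48 h regions. At 96 h 5 of 17 (29.4%, 10.3 to 56.0) were not called in 2iL, against 30.5%. Of the 28 regions of 48 h, 8 were called at 96 h (28.6%, 13.2 to 48.7), against 49.3% of all, which lies just above the interval.

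**Figure D3:**
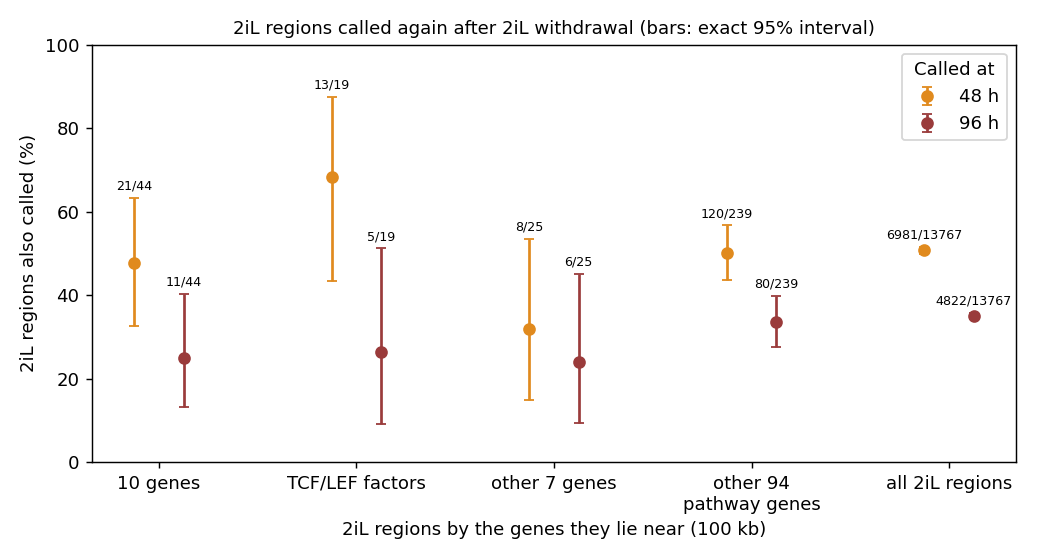
Share of 2iL regions (percent, vertical axis) that were called again at 48 h and at 96 h, by the genes they lie near, with exact 95% intervals and the counts above each point. At 48 h the TCF and LEF factor genes stand at 68.4% and the other 7 genes at 32%, on either side of the 50.7% of all 2iL regions, with intervals that meet.

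Merging regions that overlapped between libraries left 54 merged regions near the 10 genes. Of these 19 (35.2%) were called in 2iL alone, against 33.7% of the 18634 in the genome, and 14 (25.9%) in 2iL and at 48 h, against 14%. All 3 libraries called 7 (13%), against 22.9%. Another 4 (7.41%) were called in 2iL and at 96 h but not at 48 h, against 2.65%, and these lay near Tcf7l1, Sp5, Cdx1 and T.

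Where a 2iL region near these genes was called again, its fold was mostly lower. It was lower at 48 h for 15 of 21, against 66.8% of all shared regions, with a median ratio to 2iL of 0.812 against 0.839. It was lower at 96 h for 9 of 11, against 73.5%, with a median ratio of 0.656 against 0.768. Counting intervals lay wholly under those of 2iL at 5 of 21 merged regions at 48 h (near Tcf7l1, Tcf7, Sp5 and, for 2, Lef1) and at 5 of 11 at 96 h (2 near Lef1, 2 near Sp5 and 1 near T). None lay wholly above. The same comparison of intervals was not made over all shared regions, so these counts do not set the genes apart. Each fold is over its own library's background, which differs between libraries, so these ratios are a description and not a test of binding.

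**Figure D4:**
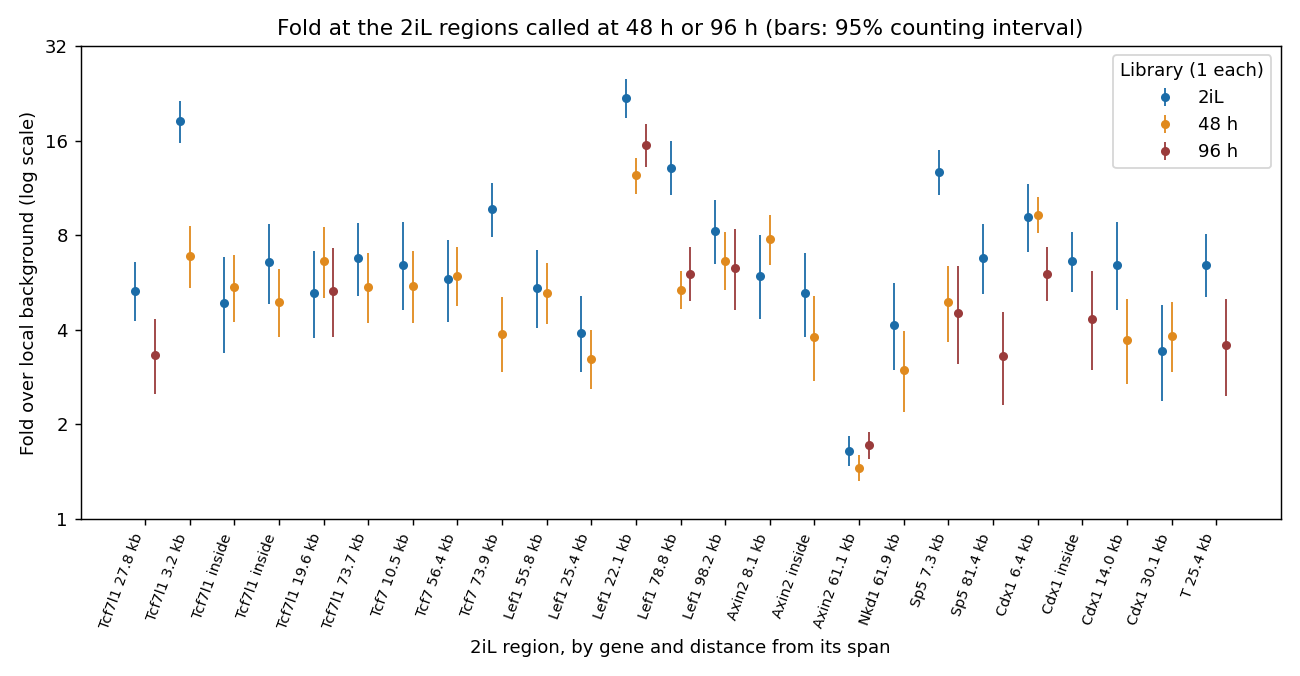
Fold over local background (vertical axis, log scale) at the 2iL regions that were called at 48 h or 96 h, named by gene and distance from its span, with 95% counting intervals and 1 library per condition. The Tcf7l1 region at 3.2 kb, the Sp5 region at 7.3 kb and the Lef1 regions at 22.1 and 78.8 kb have 2iL points well above the later ones, while the Axin2 region at 61.1 kb lies under 2 in all 3 libraries.

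Of all regions of a library the strongest 20% by fold held 8 of 44 regions near the 10 genes in 2iL (18.2%), 3 of 28 at 48 h (10.7%) and 1 of 17 at 96 h (5.88%). The 1 at 96 h is that inside Hadh, beyond Lef1, and the 3 at 48 h are the same region, the one upstream of Axin2 and the one beside Cdx1. The median fold was 5.86, 4.61 and 4.05 in the 2iL, 48 h and 96 h libraries, against 5.88, 4.98 and 4.82 over all regions.

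The rest of the pathway was described from a list of 94 other genes. A region lay within 100 kb of 85 of them in 2iL, 68 at 48 h and 59 at 96 h. Over all protein-coding genes, 69.8%, 64.7% and 54% had one, with the libraries in that order. At 48 h 50 of the 94 had fewer regions than in 2iL and 15 had more, and at 96 h 71 had fewer and 10 more. The 94 include genes without a 2iL region, which cannot have fewer. Shares given above for genes with a 2iL region are thus not a like comparison. Of the 239 2iL regions near the 94 genes, 50.2% were called at 48 h (43.7 to 56.7). For 96 h the share was 33.5% (27.5 to 39.8), and both are close to the shares of all regions. By role, a 2iL region lay near 19 of 24 genes of ligands and their secretion, 15 of 17 receptors, 14 of 14 cytoplasmic components, 10 of 10 nuclear cofactors, 16 of 17 antagonists and 11 of 12 other targets. At 96 h the counts were 12, 11, 11, 8, 10 and 7. Wnt2b, Wnt5a, Wls, Fzd1, Fzd6 and Msx1 had none in any library.

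**Figure D5:**
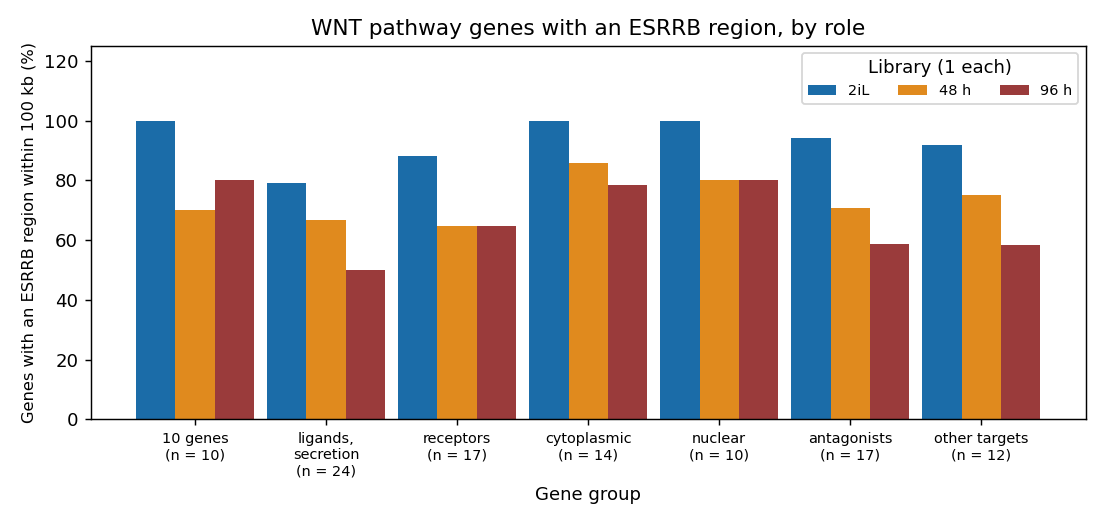
Percent of genes with at least 1 ESRRB region within 100 kb (vertical axis) in the 2iL, 48 h and 96 h libraries, for the 10 genes and for 94 other pathway genes by role, with the number of genes under each group. Each group has its highest bar in 2iL, and the ligand genes have the lowest 2iL bar, at 19 of 24 genes.

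The 12 genes of the wider list with the highest folds were 4 antagonists, 3 receptors, 3 nuclear cofactors and 2 other targets, and several of the regions lie inside or nearest another gene. Near Tnfrsf19, a receptor gene that WNT signals induce, a region 5.95 kb away (chromosome 14, 60956931 to 60959451) had folds of 30.7 (27.0 to 34.7), 18.2 (16.0 to 20.5) and 20.4 (17.2 to 24.1) in the 2iL, 48 h and 96 h libraries. Near Wif1, which encodes a secreted WNT inhibitor, a region 16.7 kb away had 21.7, 9.54 and 6.52, and the later intervals lie under that of 2iL. Sfrp4, another secreted inhibitor, had a region inside it with 17.3, 20.9 and 8.36. Other regions had their highest fold after withdrawal: one inside Rbp7, 67.4 kb from Ctnnbip1, an inhibitor of β-catenin binding to TCF, had 13.0, 19.5 and 17.6. One 4.97 kb from Tle3, a corepressor of TCF factors, had 8.61, 14.9 and 9.69. A region 98.8 kb from Sfrp2 had 11.7, 15.2 and 16.5.

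The strongest 2iL regions near Lrp6, the WNT co-receptor (55.4 kb away, fold 19.6), Pygo2 (inside Zbtb7b, 18.1), Ryk (92.2 kb away, 16.0) and Tbx3 (85.4 kb away, 15.4) were called at both later times. That near Sfrp5, inside Crtac1 (14.3), was called at 48 h, and that inside Ror2 (14.0) in 2iL alone.

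The numbers of regions in the 3 libraries set some of these genes beside others of the pathway. Fzd5 and Lrp5 had the same 3 counts as Ctnnb1 (2, 0 and 1), as had 127 protein-coding genes other than Ctnnb1. Sfrp1 and Wnt11 had those of Nkd1, as had 406 genes. Bcl9l had those of T, as had 16, and Wnt9b those of Wnt3, as had 137, by sharing its regions. Tcf7l1 and Lef1 shared their counts with 0 other protein-coding genes. These are matches of 3 numbers from 3 libraries and carry no more than that.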

How the data were processed

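ESRRB ChIP-seq libraries were made from E14 cells fixed with 1% formaldehyde, with 10 ng of DNA per library, per the labels. Per the submitters' processing notes, bcl2fastq 2.20.0.422, BWA, SAMtools, Picard and MACS2 were used with build mm10. What each tool did, the calling threshold and whether the 3 input libraries served as controls: not given in the sources used here. Input libraries were not analysed here. The deposited lists give 1 line per summit, with a fold (a ratio to local background, with a pseudocount of 1), a p-value and a q-value as −log10, and a score that was not used here.

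Fold and p together gave the reads and background at each highest summit, whole within 0.05 for 100% of the regions solved, and exact Poisson 95% intervals on those reads gave the fold intervals, which cover counting error only. The recovery was tested on simulated data. Reads per highest summit had medians of 51, 68 and 45 in the 2iL, 48 h and 96 h lists. The lowest background, which scales with depth, was 5.04, 8.09 and 5.84 reads. Library totals were not used here.

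Gene spans came from RefSeq GRCm38.p6, the same assembly as mm10, which matched all 104 listed genes, and strand came from its promoter table. Exons and introns were not told apart. Overlaps were computed with Python 3.11.15 and checked with bedtools 2.31.1, with the same counts. Shares carry exact Clopper-Pearson 95% intervals. No p-value was computed, since each condition had 1 library.

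The 10 genes, the wider list and the comparisons were chosen with earlier results of these data known. All 10 genes are named, with their strongest region in each library and every region within 10 kb. From the wider list the 12 genes of highest fold and those with no region are named, and for each of the 10 up to 3 genes of the wider list with the same 3 counts. The alternatives tried were windows of 50 and 10 kb, lists cut to the same length, a maximum q of 1e-05, other overlap rules, the highest summit alone and the nearest gene alone.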

Additional observations from a re-analysis of the deposited data

How the results depend on the processing

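No paired analysis was possible because each condition had 1 library. Of 83 values recomputed under the alternatives, 69 moved by less than their interval or by less than 1.5 times, and no median ratio changed sign. Directions per gene did change with lists of equal length, as given with the counts above. The number of regions near the 10 genes (2iL, 48 h, 96 h) moved to 27, 17 and 12 with a 50 kb window (the last within 1.5 times), 14, 11 and 6 with a 10 kb window, 22, 14 and 17 with lists of equal length (the last the same), and 22, 17 and 6 when the gene had to be the nearest. Within 10 kb, 5 genes had a region in 2iL, 6 at 48 h and 4 at 96 h. With 50% of each region required to overlap, 42.9% of regions at 48 h, against 44.7% of all, and 64.7% at 96 h, against 43.2% of all, were not called in 2iL. With the 1 bp rule the shares at 96 h were 29.4% and 30.5% of all, so the share near the 10 genes moved further. Each of these rules is narrower than the main one, and the cause of the moves was not tested. The share of 2iL regions near the 10 genes called later ranged from 36.4% to 54.5% at 48 h and from 13.6% to 36.4% at 96 h over all alternatives. For all 2iL regions it ranged from 44.1% to 54.8% at 48 h and from 29% to 47.8% at 96 h. The highest share near the 10 genes at 96 h came with lists of equal length, where that of all regions was 47.8%. The median log2 ratio of fold was −0.30 at 48 h and −0.61 at 96 h, and −0.42 and −0.68 with the summit nearest that of 2iL. Regions of fold 2 or more, a limit added after the data were seen, left 42, 27 and 16. Called regions near the 10 genes held as few as 10, 34 and 30 reads at the highest summit (2iL, 48 h, 96 h), and what lies under the calling threshold was not measured.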
